A study of Caenorhabditis elegans with 18 samples.

Results

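The 41 genes described here encode the core of the *Caenorhabditis elegans* spliceosome and its SR protein partners. They were taken by WormBase symbol from the 46726 genes counted in each library: the *rsp*, *snr*, *lsm* and *prp* genes with a number, together with *uaf-1*, *uaf-2*, *sfa-1*, *sftb-1*, *snrp-200* and *rnp-4*. The rule uses no measured value. They fall into 8 SR protein genes, 7 Sm protein genes, 7 LSM protein genes, 13 PRP factor genes and 6 genes for splice site recognition and other core functions. Poly(A) RNA came from whole L4 larvae of synchronized cultures, with 3 biological replicates, lettered A to C, for each of 6 genotypes. These are wild type (N2), the deletion mutants *ceh-14(ch3)*, *fust-1(csb21)* and *tdp-1(csb38)*, and 2 double mutants, *fust-1; ceh-14* and, with the other RNA-binding protein lost, *tdp-1; ceh-14*. The labels name no treatment. The *fust-1* deletion carries a *myo-2::GFP* marker and the *tdp-1* deletion a *myo-3::GFP* marker, so these strains also express a transgene in pharyngeal or body wall muscle. The question asked of the data is whether loss of either RNA-binding protein changes the level of the general splicing machinery.

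The spliceosome removes introns in a series of small nuclear ribonucleoprotein particles (snRNPs), which assemble on each intron anew. SF1 and the large and small subunits of U2AF, encoded in the worm by *sfa-1*, *uaf-1* and *uaf-2*, mark the branch point and the 3′ splice site. The Sm proteins form the ring around U1, U2, U4 and U5 snRNA, the LSM proteins form the ring around U6 snRNA and, in another combination, the ring that directs mRNA decapping, and the PRP factors act from U1 recruitment to the second catalytic step. SR proteins bind exonic enhancers and recruit these particles. FUST-1 and TDP-1 are RNA-binding proteins that regulate the inclusion of individual exons, and CEH-14 is a LIM-homeodomain transcription factor.

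The deleted genes were low in the libraries that bear their names. Levels are CPM, counts relative to the library's total in genes, with library sizes scaled by the trimmed mean of M-values (TMM). *fust-1* stood at 156 ± 11.7 CPM in wild type, 41.7 ± 8.55 CPM in *fust-1* and 47.7 ± 5.54 CPM in *fust-1; ceh-14*. *tdp-1* stood at 93.5 ± 13.5 CPM in wild type, 15.1 ± 1.72 CPM in *tdp-1* and 18.3 ± 4.04 CPM in *tdp-1; ceh-14*. *ceh-14* stood at 5.54 ± 0.323 CPM in wild type and at 1.82 ± 0.328 CPM, 1.82 ± 0.189 CPM and 1.41 ± 0.945 CPM in the 3 genotypes that lack it, given with the single mutant first. In *fust-1* and *tdp-1*, which keep this gene, it stood at 5.47 ± 2.42 and 6.61 ± 0.35 CPM, and the lowest *fust-1* library had 2.67. The fold changes of the deleted genes also set a scale for what the tests could call. With 3 libraries against 3, the lower level of *fust-1* itself in *fust-1* against wild type (-1.89 ± 0.21 on the log2 scale) had an adjusted p of 0.0773 in edgeR (0.0363 with the replicate block), whereas averaged over both backgrounds it had an adjusted p of 3.98e-05 (-1.80 ± 0.12). *tdp-1* had an adjusted p of 0.00118 in *tdp-1* against wild type (-2.65 ± 0.16). A count of 0 calls is therefore read below together with the 95% intervals of the fold changes.

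Every gene of the group was well covered by reads. Each library held between 19556372 and 119814176 counts in genes, the 41 genes together took 0.433 to 0.563% of them, and the lowest count of any of the 41 in any library was 437. All 41 passed the low-count filter in every comparison. None of the germline, sperm, neuron, muscle, intestine and hypodermis marker genes was at 0 in any library, as in whole animals. In bulk RNA of this kind, fewer cells of a type and less RNA per cell cannot be told apart. Replicate C of *fust-1* and replicate C of *tdp-1; ceh-14* stood apart from the other 16 libraries. In these libraries genes with short exon sequence were high and genes with long exon sequence were low, across the genome as well as among the splicing genes. A trend of the same sign was present in some other libraries, among them wild type B and C and *tdp-1; ceh-14* B, as given below. For most comparisons that use *fust-1* C or *tdp-1; ceh-14* C, the median of the 41 genes is given with and without that library.

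Added up, the genes of the splicing machinery overlapped wild type in every mutant genotype. The 41 genes summed to 4770 ± 388 CPM in wild type (SD, n = 3), 4910 ± 390 in *ceh-14*, 5270 ± 943 in *fust-1*, 4330 ± 115 in *tdp-1*, 4950 ± 118 in *fust-1; ceh-14*, and the sum was 4880 ± 262 in *tdp-1; ceh-14*. The *tdp-1* libraries, at 4210 to 4430 CPM, overlapped wild type, at 4340 to 5070 CPM, and lay below every library of the remaining 4 genotypes, the lowest of which stood at 4530 CPM. These sums are given as a description, with no test. The wide spread of *fust-1* came from replicate C, whose sum of 6330 CPM was the highest of the 18 libraries.

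Per kilobase of exon, the 6 highest levels were those of Sm genes. Mean levels over the 18 libraries were 332 CPM per kb for *snr-2* (SmB), 254 for *snr-5* (SmF), 248 for *snr-3* (SmD1), 233 for *snr-4* (SmD2), 223 for *snr-6* (SmE) and 222 for *snr-1* (SmD3), with *snr-7* (SmG) at 160. Next came *rnp-4*, the Y14 subunit of the exon junction complex, at 198 CPM per kb, and the SR genes *rsp-6* at 177 and *rsp-3* at 160. The median of the 41 genes was 86.5 CPM per kb. At the bottom stood *snrp-200*, the Brr2 helicase that unwinds U4/U6, at 30.3 CPM per kb, *prp-4* at 31.7, *prp-18* at 33.1, *sftb-1*, the SF3B1 subunit of U2 snRNP, at 33.2 and *prp-8*, the U5 protein at the catalytic centre, at 35.6. The 3 genes with over 4000 bases of exon, *snrp-200*, *sftb-1* and *prp-8*, were all among these 5.

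Within a gene the range over libraries was smaller for most genes once the divergent libraries were set aside. The ratio of the highest to the lowest library had a median of 1.99 over the 41 genes with all 18 libraries and 1.5 with the 16 others. Over those 16 it was still 2.64 for *prp-8*, 2.33 for *snrp-200* and 2.1 for *sftb-1*, the 3 longest genes, and 1.97 for the short *lsm-3*. *fust-1* C held the highest value of 22 genes and *tdp-1* A the lowest value of 24. *tdp-1; ceh-14* C was the lowest library for 10 genes and the highest for 6, and *ceh-14* A was the highest for 10.

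The 8 SR protein genes are given library by library, with values in the order A, B and C and positions in WBcel235. *rsp-3* (WBGene00004700, chromosome III, 12686182 to 12687922) encodes the worm SF2/ASF. Its CPM was 247, 227 and 252 in wild type, 283, 241 and 245 in *ceh-14*, 230, 244 and 367 in *fust-1* and 253, 270 and 284 in *fust-1; ceh-14*. It was 215, 250 and 250 in *tdp-1* and 224, 300 and 310 in *tdp-1; ceh-14*. The *fust-1; ceh-14* libraries lay above wild type without overlap, by 0.20 ± 0.10 (SE) on the log2 scale, as did 4.94% of all genes, and this missed the threshold (adjusted p = 0.6, edgeR). *rsp-6* (WBGene00004703, chromosome IV, 7789847 to 7791229) encodes the worm SRp20, and had the widest range of the class, 2.88-fold. Its CPM was 192, 204 and 248 in wild type, 197, 189 and 199 in *ceh-14*, 184, 203 and 475 in *fust-1* and 193, 209 and 209 in *fust-1; ceh-14*. It was 165, 176 and 171 in *tdp-1* and 193, 243 and 284 in *tdp-1; ceh-14*. Replicate C of *fust-1* stood far above A and B. The 3 *tdp-1* libraries lay below all wild-type libraries, as they did for 13.7% of all genes.

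*rsp-5* (WBGene00004702, chromosome II, 6490165 to 6491340) encodes an SR protein with a less certain mammalian counterpart. Its CPM was 133, 116 and 148 in wild type, 144, 134 and 137 in *ceh-14*, 124, 121 and 222 in *fust-1* and 131, 127 and 141 in *fust-1; ceh-14*. It was 99.7, 109 and 103 in *tdp-1* and 122, 160 and 126 in *tdp-1; ceh-14*. The *tdp-1* libraries were below all wild-type and *ceh-14* libraries, and the *tdp-1; ceh-14* libraries overlapped both. *rsp-7* (WBGene00004704, chromosome II, 10659206 to 10662317) encodes an SR-related protein. Its CPM was 68.3, 65.7 and 81.4 in wild type, 74.6, 66.5 and 73.8 in *ceh-14*, 66.8, 55.5 and 57.5 in *fust-1* and 74.8, 72 and 68.8 in *fust-1; ceh-14*. It was 57, 59.2 and 57.7 in *tdp-1* and 70.1, 62.1 and 64.8 in *tdp-1; ceh-14*. Here too *tdp-1* lay below wild type without overlap (13.7% of all genes did), while *fust-1* B and C, at 55.5 and 57.5 CPM, were as low as *tdp-1*.

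*rsp-4* (WBGene00004701, chromosome II, 5387411 to 5388836) encodes the worm SC35. Its CPM was 109, 116 and 147 in wild type, 120, 125 and 122 in *ceh-14*, 116, 115 and 181 in *fust-1* and 115, 137 and 135 in *fust-1; ceh-14*. It was 90.9, 111 and 102 in *tdp-1* and 112, 135 and 169 in *tdp-1; ceh-14*. *tdp-1* overlapped wild type and lay below *ceh-14*, with *tdp-1* A the lowest of the 18 libraries and *fust-1* C the highest. *rsp-1* (WBGene00004698, chromosome II, 11453362 to 11455864) and *rsp-2* (WBGene00004699, chromosome II, 11451441 to 11452955) are close neighbours and encode relatives of mammalian SRp75 and SRp40. *rsp-1* had 179, 167 and 201 CPM in wild type, 190, 169 and 172 in *ceh-14*, 172, 157 and 264 in *fust-1* and 174, 160 and 182 in *fust-1; ceh-14*. It was 156, 159 and 171 in *tdp-1* and 184, 208 and 224 in *tdp-1; ceh-14*. *rsp-2* had 159, 142 and 161 CPM in wild type, 172, 158 and 152 in *ceh-14*, 168, 150 and 164 in *fust-1* and 163, 160 and 167 in *fust-1; ceh-14*. It was 141, 154 and 160 in *tdp-1* and 158, 153 and 122 in *tdp-1; ceh-14*. The pair parted in the divergent libraries: *tdp-1; ceh-14* C was high for *rsp-1* and the lowest of all 18 for *rsp-2*. *rsp-8* (WBGene00004705, chromosome III, 11826418 to 11830974), a Tra2-like gene, stayed within a 1.33-fold range. Its CPM was 121, 109 and 124 in wild type, 131, 122 and 114 in *ceh-14*, 118, 104 and 127 in *fust-1* and 113, 127 and 127 in *fust-1; ceh-14*. It was 98.2, 119 and 115 in *tdp-1* and 114, 122 and 117 in *tdp-1; ceh-14*. All pairs of genotypes overlapped. Of the 8 SR genes, 5 share at most 73 exon bases with a neighbouring gene, and these values could hold some of its reads.

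**Figure D1:**
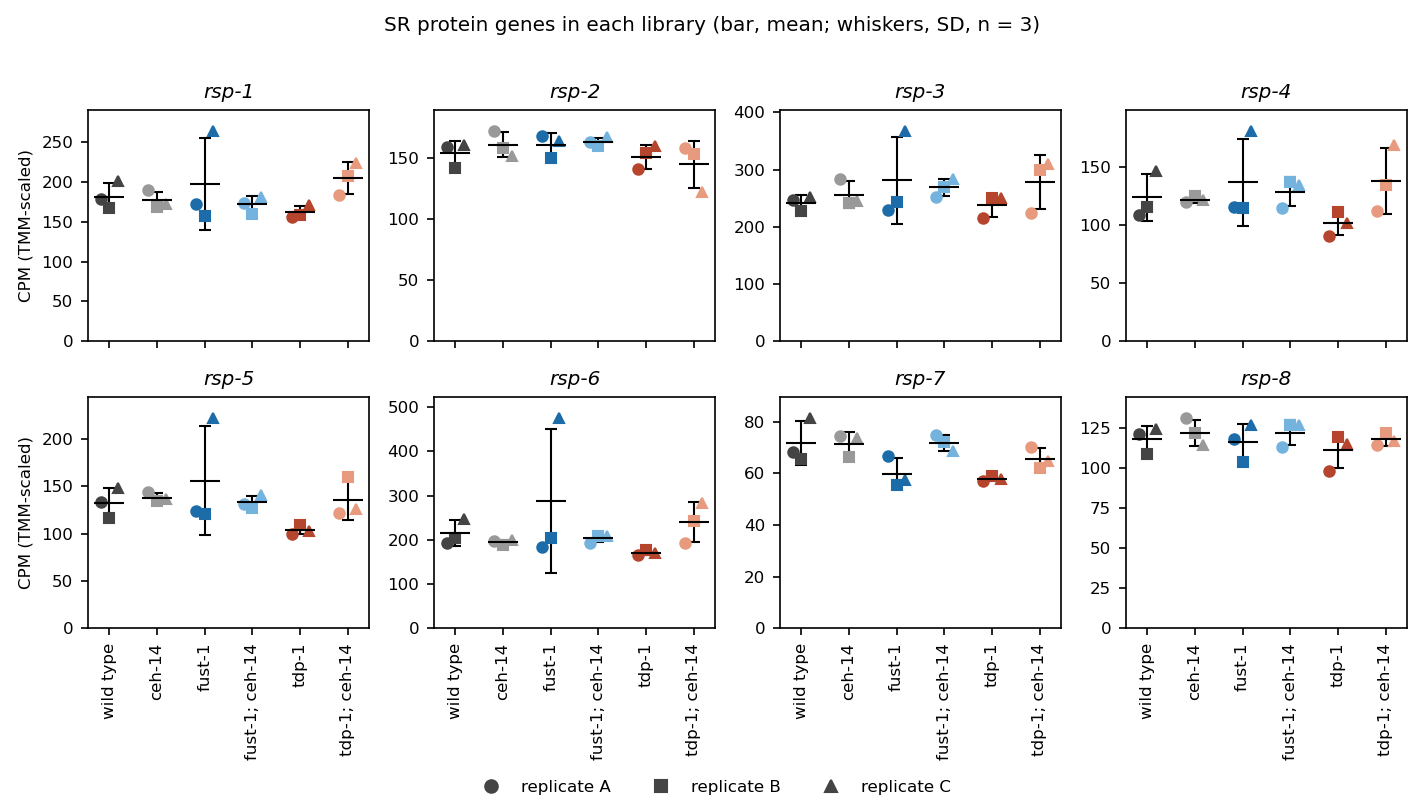
CPM of the 8 SR protein genes in each library (symbols mark replicates A, B and C; horizontal bar, mean; whiskers, SD, n = 3), with each axis starting at 0. The *tdp-1* libraries lie below wild type without overlap for *rsp-5*, *rsp-6* and *rsp-7*, as they do for 13.7% of all genes. *fust-1* C is the highest library for *rsp-1*, *rsp-3*, *rsp-4*, *rsp-5* and *rsp-6*.

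Loss of *fust-1* did not change the level of any of the 41 genes past the threshold. In *fust-1* against wild type, edgeR called 0 of 41 at an adjusted p under 0.05, against 0.0184% of all 16315 genes tested. DESeq2 also called 0 (0.196% of all genes), and in edgeR none of the 41 had an unadjusted p under 0.05 (2.05% of all genes). No gene was free of overlap between the groups, against 2.52% of all genes higher and 3.86% lower. The fold changes ran from -0.31 for *prp-39* to 0.91 for *lsm-3* on the log2 scale, and 31 of 41 were positive, with a median of 0.15 beside 0.02 over all genes. Without *fust-1* C the median was -0.03 and 24 of 41 were negative.

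The smallest p-values in this comparison belonged to *lsm-3* and *prp-3*, and in both replicate C stood highest. *lsm-3* (WBGene00003077, chromosome IV, 13387203 to 13389143), a subunit of both LSM rings, had 29.1, 37.6 and 46.7 CPM in wild type and 31.5, 34.5 and 149 in *fust-1*. A and B lay inside the wild-type range and C was the highest of all 18 libraries, so the fold change of 0.91 ± 0.56 (SE) became -0.17 without C. *prp-3*, a U4/U6 snRNP gene, had 99.7, 82.9 and 97.2 CPM in wild type and 98.7, 102 and 160 in *fust-1*, where B lay just above the wild-type range and C far above it (0.37 ± 0.23, adjusted p = 1).

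The same loss in the *ceh-14* background gave narrower intervals, with a median half-width of 0.21 in place of 0.54. edgeR called 0 of 41 in *fust-1; ceh-14* against *ceh-14*, against 0.0308% of 16258 genes, and DESeq2 called 0 (0.209% of all genes). The unadjusted p was under 0.05 for 2 of 41, against 2.25% of all genes. All 41 intervals lay within a 2-fold change in either direction (log2 of 1), and the median was 0.06 beside -0.03 over all genes. In *fust-1* against wild type 34 of 41 did so. The 7 that reached beyond it were *lsm-1*, *lsm-3*, *lsm-8*, *prp-8*, *rsp-6*, *snr-3* and *snr-5*.

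*prp-39* (WBGene00017768, chromosome V, 5678598 to 5682630), a U1 snRNP factor that helps U1 engage the 5′ splice site in yeast, had the smallest p of the group on loss of *fust-1*. Its CPM was 131, 96.5 and 106 in wild type and 106, 93.1 and 66.7 in *fust-1*. It was 136, 115 and 119 in *ceh-14* and 97.8, 89.7 and 96 in *fust-1; ceh-14*. The *fust-1; ceh-14* libraries lay below *ceh-14* without overlap, at -0.36 ± 0.08 (SE; unadjusted p = 0.0028, adjusted p = 1, edgeR), while *fust-1* overlapped wild type (-0.31). Non-overlap in the lower direction was met by 3.76% of all genes in that comparison, and in the higher direction by 2.69%, among them *lsm-4* and *snr-2* of the 41. Averaged over both backgrounds, loss of *fust-1* gave 0 calls of 41 in edgeR, against 0.0949% of 16862 genes, and 0 in DESeq2 (0.315% of all genes). In edgeR 1 unadjusted p was under 0.05 (3.62% of all genes), that of *prp-39* at -0.33 ± 0.13. It stayed between -0.24 and -0.41 when each library was left out in turn. Of the 41 intervals 40 lay within a 2-fold change, the exception being that of *lsm-3*. The median of the 41 genes was 0.12, and 0.04 without *fust-1* C.

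*lsm-8*, the subunit that sets the nuclear U6 ring apart from the cytoplasmic one, was the other gene with an unadjusted p under 0.05 in *fust-1; ceh-14*. It had 64.3, 66.7 and 59.1 CPM in *ceh-14* and 66.5, 79.8 and 84.3 in *fust-1; ceh-14*, with overlap between the groups (0.29 ± 0.11, adjusted p = 1). In wild type it had 56.4, 65.2 and 80.3 and in *fust-1* 57.2, 70.5 and 168, where only C was above the wild-type range.

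**Figure D2:**
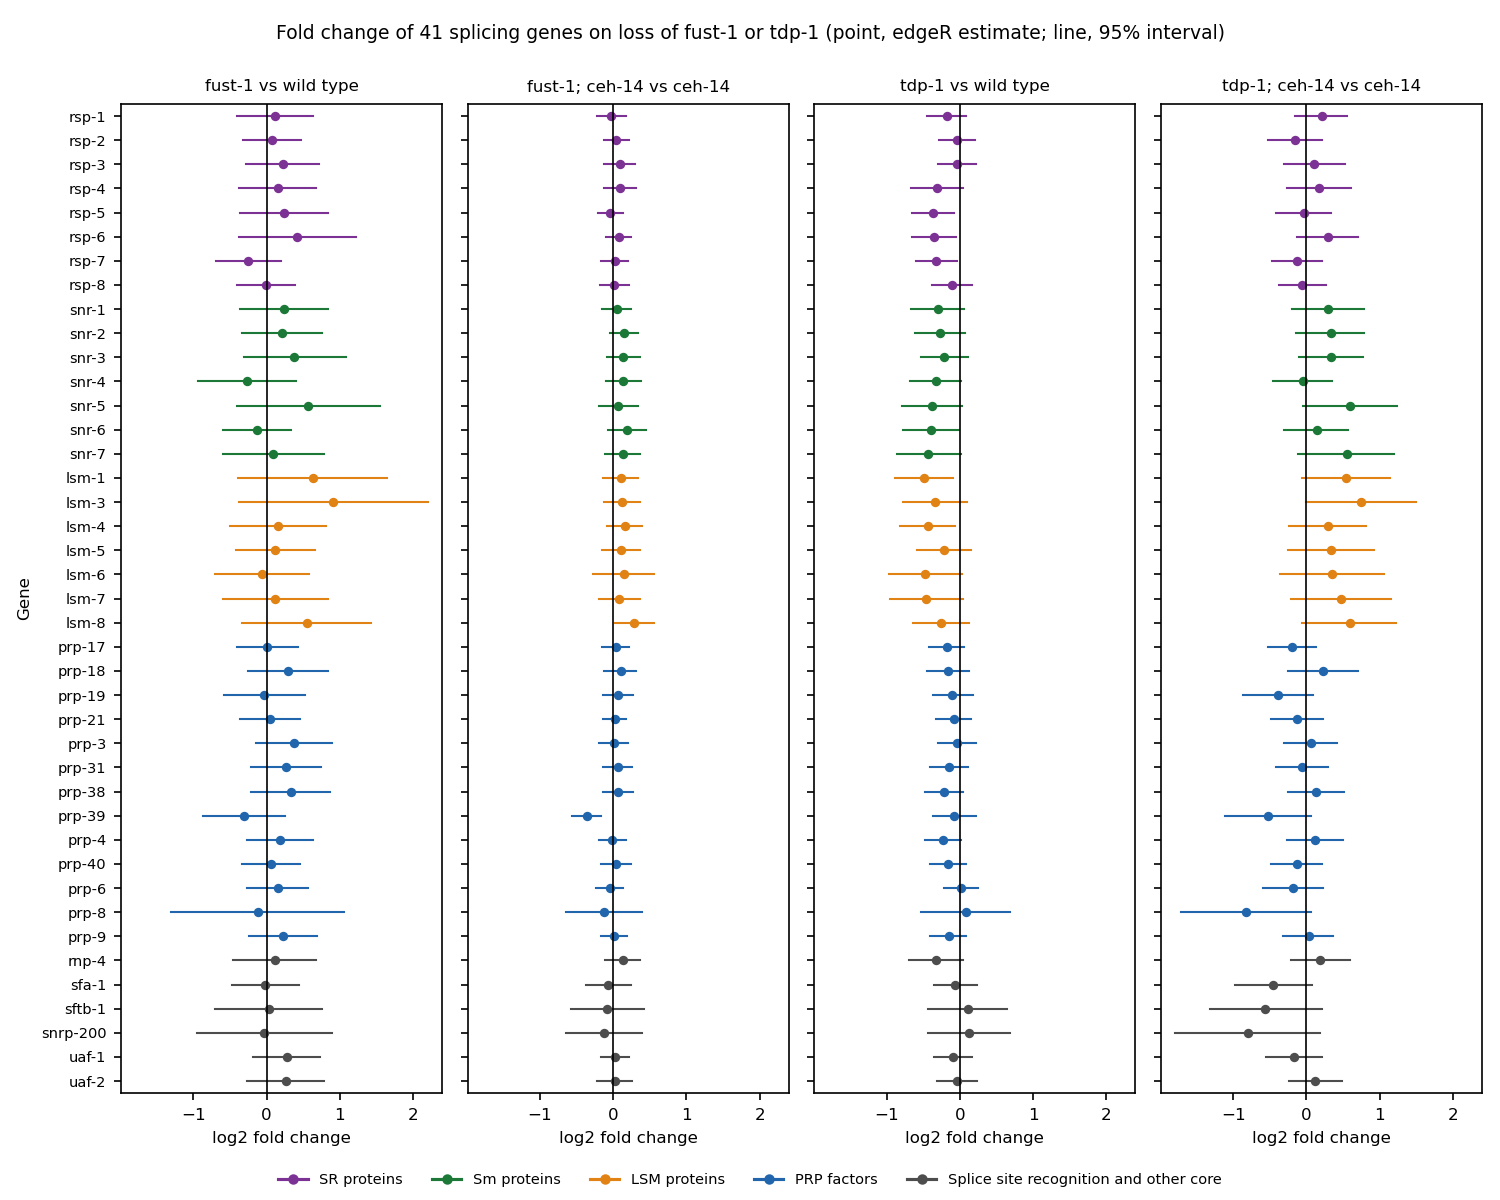
log2 fold change of each of the 41 genes (point) with its 95% interval (line) on loss of *fust-1* or *tdp-1* in the wild-type and *ceh-14* backgrounds, coloured by class. No gene passed an adjusted p of 0.05 in any panel; 37 of 41 points lie below 0 in *tdp-1* against wild type, and the intervals are narrowest in *fust-1; ceh-14* against *ceh-14*.

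Loss of *tdp-1* in the wild-type background put 37 of 41 genes on the lower side of 0, more on one side than in any other of the 7 pairs of genotypes, and again none past the threshold. edgeR called 0 of 41, against 0.128% of 16415 genes, and DESeq2 called 0 (5.51% of all genes). The smallest adjusted p was 0.192. The fold changes had a median of -0.21 beside 0.01 over all genes, and ran from -0.49 for *lsm-1* to 0.13 for *snrp-200*. The 4 positive genes included all 3 with the longest exon sequence, *prp-8*, *snrp-200* and *sftb-1*. The unadjusted p was under 0.05 for 6 of 41 (19.2% of all genes), all lower, where 8.94% of all genes were lower at that level and 10.3% higher. The 41 intervals all lay within a 2-fold change.

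By class, the medians in *tdp-1* against wild type were -0.44 for the 7 LSM genes, -0.33 for the 7 Sm genes, -0.25 for the 8 SR genes, -0.15 for the 13 PRP genes and -0.05 for the 6 recognition and other core genes. Every LSM, Sm and SR gene was negative. By length, the 13 genes with under 700 bases of exon had a median of -0.38 and the 3 with over 4000 bases a median of 0.11. The 25 genes of 700 to 4000 bases had a median of -0.15, and 24 of them were negative. All 7 LSM genes have under 700 bases of exon.

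The *tdp-1* and wild-type libraries did not overlap for 8 of 41 genes, all lower in *tdp-1*, where 13.7% of all genes were lower without overlap and 13.6% higher. They were *lsm-1*, *lsm-4*, *rsp-5*, *rsp-6*, *rsp-7*, *prp-4*, *prp-9* and *prp-17*. *lsm-1* (WBGene00003076, chromosome II, 11126950 to 11127528), the subunit that sets the decapping ring apart, had 47.2, 51.1 and 69.5 CPM in wild type and 37.4, 44.2 and 38.9 in *tdp-1* (-0.49 ± 0.17, unadjusted p = 0.0212, adjusted p = 0.197). *lsm-4* had 20.9, 24.4 and 28.4 and 17.3, 19.9 and 17.8 (-0.44 ± 0.16, adjusted p = 0.212), and its value is uncertain because 247 of its 609 exon bases overlap *ada-2* on the other strand and the strand setting of the counting is not given in the sources used here. In both genes replicate C of wild type was the highest of its group.

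For the SR genes, the log2 fold change in *tdp-1* was -0.37 ± 0.12 for *rsp-5* (adjusted p = 0.192), -0.35 ± 0.13 for *rsp-6* (adjusted p = 0.218) and -0.32 ± 0.12 for *rsp-7* (adjusted p = 0.216). The *rsp-5* value stayed between -0.27 and -0.46 when each library was left out in turn, with adjusted p between 0.0564 and 0.454. For the group as a whole single libraries moved the result: without wild type C the median of the 41 genes was -0.11 in place of -0.21 and 1 gene in place of 6 had an unadjusted p under 0.05 (10.9% of all genes in place of 19.2%), while without wild type A the number was 22 (26% of all genes) and without *tdp-1* A 0 (14%). With the exon length trend of each library removed, a setting chosen after the data were seen, the median was -0.22, 40 of 41 genes were negative and 17 had an unadjusted p under 0.05 (25.4% of all genes), with 0 calls. Summed CPM of the 30 germline markers was 7760 to 8710 in *tdp-1* and 7690 to 11600 in wild type, and that of the 20 spermatogenesis markers 1110 to 1140 and 762 to 1170. Their part in the lower splicing gene levels was not tested.

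The same loss in the *ceh-14* background gave another order. In *tdp-1; ceh-14* against *ceh-14*, edgeR called 0 of 41, against 0.00594% of 16846 genes, and DESeq2 called 0 (0.243% of all genes). An unadjusted p under 0.05 was met by 1 gene, *lsm-3* (9.09% of all genes), and 24 of 41 fold changes were positive, with a median of 0.12 beside 0.06 over all genes. *lsm-3* had 35.6, 37.1 and 33.3 CPM in *ceh-14* and 35.1, 53.3 and 90.3 in *tdp-1; ceh-14* (0.75 ± 0.32, adjusted p = 0.437), and A lay inside the *ceh-14* range. *prp-8* (WBGene00004187, chromosome III, 8164373 to 8172710) had the opposite sign, with 446, 251 and 282 CPM in *ceh-14* and 287, 169 and 98.8 in *tdp-1; ceh-14* (-0.82 ± 0.38, adjusted p = 0.437). Replicate C was the extreme library in both, the highest of the group for *lsm-3* and the lowest for *prp-8*. Without it the median was 0.02 and 0 of 41 had an unadjusted p under 0.05 (3.16% of all genes), and without *tdp-1; ceh-14* A the median was 0.21 and 13 did (24% of all genes). The spermatogenesis markers summed to 1090 to 1760 CPM in *tdp-1; ceh-14* and, without overlap, to 606 to 1070 in *ceh-14*. The germline markers summed to 5800 to 9710 CPM in *tdp-1; ceh-14* and 9700 to 13000 in *ceh-14*. Their part in these fold changes was not tested.

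*prp-17*, *prp-19* and *prp-39* were lower in all 3 *tdp-1; ceh-14* libraries than in all 3 *ceh-14* libraries, and *snr-3* higher in all 3, where 9.17% of all genes were lower without overlap and 9.74% higher. *prp-19*, the ubiquitin ligase of the complex that activates the spliceosome, had 240, 199 and 198 CPM in *ceh-14* and 197, 170 and 121 in *tdp-1; ceh-14*. *prp-17*, a factor of the second catalytic step, had 98.7, 89 and 84.7 and 80.4, 82.6 and 74.8. For *prp-17* the *tdp-1* libraries, at 79.9, 78.5 and 79.5, also lay below wild type, at 95.9, 80.8 and 90.3.

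Averaged over both backgrounds, loss of *tdp-1* gave 0 calls of 41 in edgeR, against 0.312% of 17305 genes, and 0 in DESeq2 (7.35% of all genes). The unadjusted p was under 0.05 for 2 of 41, against 22.6% of all genes, and these were *rsp-7* (-0.21 ± 0.09, adjusted p = 0.183) and *prp-17* (-0.18 ± 0.08, adjusted p = 0.205). The median was -0.05 beside 0.04 over all genes, with 26 of 41 negative. Without *tdp-1; ceh-14* C the median was -0.09 and 38 were negative. With each library's trend with exon length removed and the replicate block added, a setting chosen after the data were seen, 3 of 41 were called: *snr-4* (-0.35 ± 0.09, adjusted p = 0.0298), *snr-6* (-0.33 ± 0.09, adjusted p = 0.0256) and *lsm-6* (-0.30 ± 0.09, adjusted p = 0.0463). That setting called 16.1% of all genes.

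Whether the effect of *tdp-1* differed with *ceh-14* was tested as an interaction. edgeR called 0 of 41, against 0.0405% of 17305 genes, with 0.445 as the smallest adjusted p, and DESeq2 called 0 (0.416% of all genes). The unadjusted p was under 0.05 for 14 of 41 (11.1% of all genes), all in the direction of a higher level in the double mutant than the single losses add up to, where 7.44% of all genes were higher and 3.71% lower. They comprised 6 of 7 Sm genes, 5 of 7 LSM genes, 2 SR genes and 1 of the recognition and other core genes, and 10 of them had under 700 bases of exon. The smallest p-values were those of *lsm-1*, at 1.06 ± 0.33, and *rsp-6*, at 0.67 ± 0.22, and the highest fold change was that of *lsm-3*, at 1.12 ± 0.41. The 3 longest genes had the opposite sign, down to -0.91 for *snrp-200*. Without *tdp-1; ceh-14* C the number was 6 (5.68% of all genes) and the median 0.22 in place of 0.36. It was 3 without wild type C (4.64% of all genes), 5 without *tdp-1* A (6.96%), 7 without *ceh-14* B or C (7.57 and 8.35%), and 23 without *tdp-1; ceh-14* A (24.7%). With the exon length trend removed it was 7 (8.96% of all genes).

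The interaction of *fust-1* and *ceh-14* gave 0 calls of 41 in edgeR, against 0.0237% of 16862 genes, and 0 in DESeq2 (0.0831% of all genes). In edgeR no unadjusted p was under 0.05 (1.83% of all genes). The lowest p was that of *snr-6*, at 0.37 ± 0.22. Its CPM was 78.1, 95.5 and 117 in wild type, 84.2, 92.5 and 93.9 in *ceh-14*, 90.7, 83.7 and 88.4 in *fust-1* and 90, 115 and 101 in *fust-1; ceh-14*, with overlap throughout.

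No splicing gene passed the threshold on loss of *ceh-14* alone. edgeR called 0 of 41, against 0.092% of 16299 genes, and DESeq2 called 0 (0.847% of all genes). In edgeR no unadjusted p was under 0.05 (4.03% of all genes), and the median was 0. No gene was free of overlap, against 2.31% of all genes higher and 4.67% lower. The smallest p-values were those of *snr-7* and *snr-5*. *snr-7* had 58.9, 78.5 and 98.7 CPM in wild type and 61.7, 66.2 and 73 in *ceh-14* (-0.23 ± 0.19). *snr-5* had 64.8, 82.7 and 101 and 66.1, 78.1 and 74.2 (-0.18 ± 0.17). Both genes overlapped between the groups, and wild type C was the highest library in each; without it *snr-5* stood at 0.01. Against wild type, both double mutants (*fust-1; ceh-14* first) also gave 0 calls of 41 each in edgeR, against 0.351% of 15679 and 0.12% of 16680 genes. DESeq2 gave 0 in each as well (1.61 and 0.821% of all genes). In edgeR no unadjusted p was under 0.05 (8.83 and 7.72% of all genes). Besides *rsp-3*, the U1 factor gene *prp-40* was higher in *fust-1; ceh-14* without overlap, and none was lower, against 10% of all genes. In *tdp-1; ceh-14* none was free of overlap, against 6.01% of all genes higher and 5.01% lower. The medians were 0.1 and 0.11, the latter 0.02 without *tdp-1; ceh-14* C. In *fust-1; ceh-14* all 41 intervals lay within a 2-fold change, against 31 in *tdp-1; ceh-14*. The smallest p-values were those of *rsp-3*, given above, and *prp-19* (0.24 ± 0.12) in *fust-1; ceh-14*, and those of *lsm-3* (0.65 ± 0.33) and *lsm-8* (0.50 ± 0.28) in *tdp-1; ceh-14*. *prp-19* had 221, 169 and 186 CPM in wild type and 220, 218 and 220 in *fust-1; ceh-14*, while *lsm-8* had 66.4, 79.6 and 140 in *tdp-1; ceh-14*. These comparisons share their control libraries with those above.

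Set against each other directly, the *tdp-1* genotypes lay on average below the *fust-1* genotypes for 40 of the 41 splicing genes, without a call in edgeR. This contrast uses the 12 libraries of the 4 genotypes that lack either gene, and its genome-wide share of calls was the largest, 5.05% of 17353 genes. The median was -0.18 beside 0.01 over all genes, and the gene with the opposite sign was *prp-39* (0.05). The unadjusted p was under 0.05 for 4 of 41 (24.8% of all genes), all lower, where 9.64% of all genes were lower and 15.2% higher. They were *uaf-1* (-0.28 ± 0.11, adjusted p = 0.135), *prp-31* (-0.27 ± 0.10, adjusted p = 0.136), *prp-17* (-0.21 ± 0.08, adjusted p = 0.14) and *prp-40* (-0.19 ± 0.08, adjusted p = 0.149).

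*uaf-1*, the large U2AF subunit, had 160, 144 and 207 CPM in *fust-1* and 149, 143 and 156 in *fust-1; ceh-14*. It had 128, 137 and 137 in *tdp-1* and 129, 154 and 116 in *tdp-1; ceh-14*. Only *tdp-1; ceh-14* B reached into the range of the *fust-1* genotypes. *prp-31*, which joins U4/U6 to U5, had 140, 129 and 195, 143, 130 and 139, 117, 119 and 119 and 122, 140 and 123 in the same order, and *fust-1* C was the highest of the 12. Without *fust-1* C the median of the 41 genes was -0.05 beside 0.07 over all genes, and 27 were negative. Without *tdp-1; ceh-14* C it was -0.2 beside 0.03, and 40 were negative. With both libraries left out the median was -0.11 beside 0.05, and 37 were negative.

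Calls in this contrast appeared under other settings, each to be read against the share of all genes that the same setting called. DESeq2 called 2 of 41, *prp-17* (-0.24 ± 0.08, adjusted p = 0.0157) and *prp-40* (-0.22 ± 0.06, adjusted p = 0.0103), and 14.7% of all genes. Without *fust-1* C and *tdp-1; ceh-14* C edgeR called 1, *prp-19* (-0.25 ± 0.06, adjusted p = 0.0491), and 7.18% of all genes. With the exon length trend removed it called 3, *lsm-4*, *rnp-4* and *snr-2*, and 12.2% of all genes, and with the block by replicate in addition 9, these 3 together with *lsm-6*, *lsm-8*, *rsp-4*, *snr-1*, *snr-3* and *prp-38*. The last setting called 21.3% of all genes. All of these calls were in the direction of a lower level in the *tdp-1* genotypes, with log2 fold changes between -0.22 and -0.36. No gene was called both by DESeq2 and under an exon length setting.

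In some libraries the 41 genes followed exon length. Deviations are those of log2 CPM from the gene's mean over the 18 libraries. Their Spearman correlation with exon length is a description over 41 genes of 1 library. It ran from -0.85 in *tdp-1; ceh-14* C to 0.9 in wild type A, with 0.11 in *ceh-14* B. It was also negative in wild type C (-0.76), *fust-1* C (-0.56), *fust-1; ceh-14* B (-0.55), wild type B (-0.52) and *tdp-1; ceh-14* B (-0.33). Over all genes the correlation was -0.64 in *tdp-1; ceh-14* C, -0.38 in *fust-1* C and -0.35 in *tdp-1; ceh-14* B. In wild type B and C it was -0.2 and -0.16, and in *fust-1; ceh-14* B it was 0. In *fust-1* C the 13 genes with under 700 bases of exon had a median deviation of 0.68, and the 3 with over 4000 bases one of -0.77. In *tdp-1; ceh-14* C the same values were 0.85 and -1.3. Over all genes of these lengths they were 0.29 and -0.61 in *fust-1* C and 0.48 and -1.05 in *tdp-1; ceh-14* C. The 25 splicing genes of 700 to 4000 bases stood at 0.51 in *fust-1* C, where all genes of that length stood at 0.01. In *tdp-1; ceh-14* C these values were 0 and -0.03. Wild type A and *ceh-14* A had 0.63 and 0.78 for the long splicing genes and -0.25 and -0.15 for the short ones. In wild type C the long ones stood at -0.28 and the short ones at 0.3. The median deviation of the long genes was above 0 in all 6 A libraries, from 0.18 in *tdp-1; ceh-14* A to 0.78 in *ceh-14* A. It was also above 0 in replicate C of *ceh-14* (0.18), *tdp-1* (0.19) and *fust-1; ceh-14* (0.22).

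A pair of genes shows the size of this. The ratio of *lsm-3* (432 exon bases) to *prp-8* (7407 exon bases) in CPM was 1.63 in *fust-1* C and 0.914 in *tdp-1; ceh-14* C, and lay between 0.0738 and 0.316 in the 16 other libraries. It was 0.082 and 0.146 in A and B of *fust-1*, the genotype that also held the highest ratio. *snr-4*, with 563 bases, departed from the trend in *fust-1* C: it had 149, 120 and 73.5 CPM in *fust-1*, and C was the lowest of all 18 libraries, where *snr-1*, *snr-3* and *snr-5* were at their highest. Intestine markers summed to 14100 CPM in *fust-1* C and 15200 in *tdp-1; ceh-14* C, and to 17800 to 54600 elsewhere. Hypodermis markers summed to 4710 and 4410, and to 2830 to 3850 elsewhere. Spermatogenesis markers summed to 1540 and 1760 CPM, and to 606 to 1500 elsewhere. Germline markers summed to 8220 CPM in *fust-1* C and 5800 in *tdp-1; ceh-14* C, and to 7690 to 13000 elsewhere. What part these shifts have in the splicing gene values was not tested.

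The chromosome of the deletions was looked at separately. *fust-1* and *tdp-1* lie on chromosome II with 11 of the 41 genes. In *fust-1* against wild type those 11 had a median of 0.15 and the 30 others 0.14, and in *tdp-1* against wild type -0.21 and -0.2, with 0 calls in edgeR in either set.

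Beyond the 41 genes, 75 others from 5 lists of splicing and RNA surveillance genes were tested. These lists hold 22 other snRNP genes, 22 helicase and activation genes, 12 exon junction complex and nonsense-mediated decay genes, 9 decapping genes and 10 snRNP assembly genes. edgeR called 0 of 75 in 11 of the 12 comparisons, where it called 0.00594 to 0.351% of all genes. On loss of *fust-1* the unadjusted p was under 0.05 for 0 in the wild-type background, the *ceh-14* background and their average. The shares of all genes there were 2.05, 2.25 and 3.62%. In *tdp-1* against wild type it was under 0.05 for 7, all lower (19.2% of all genes). DESeq2 called 0 of 75 in 10 of the 12, where it called 0.0831 to 5.51% of all genes. In edgeR, 7 of 75 had an unadjusted p under 0.05 on loss of *tdp-1* averaged over both backgrounds, all lower, and 11 in its interaction with *ceh-14*, all higher, where the shares of all genes were 22.6 and 11.1%. In the direct contrast of the *tdp-1* and *fust-1* genotypes 1 of 75 was called, against 5.05% of all genes. It was *sna-2*, which encodes a protein of the trans-splicing snRNPs, at -0.37 ± 0.08 (adjusted p = 0.0363). DESeq2 called 4 there (14.7% of all genes), *sna-2*, the surveillance genes *smg-5* and *smg-6*, and *skp-1*, and 1, again *sna-2*, on loss of *tdp-1* over both backgrounds (7.35% of all genes). *sna-2* had 101, 98.5 and 102 CPM in *tdp-1* and 107, 109 and 93.6 in *tdp-1; ceh-14*, below all libraries of *fust-1*, at 137, 126 and 126, and of *fust-1; ceh-14*, at 125, 131 and 131. Leaving out single libraries kept its fold change between -0.32 and -0.39, with adjusted p between 0.0306 and 0.105, and 9 of the 12 such fits missed the threshold.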

How the data were processed

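Poly(A) RNA of the 18 libraries was sequenced in paired-end reads. The authors mapped the reads to WBcel235 with STAR and deposited raw counts per gene from HTSeq, per the study's methods and processing notes; the strand setting is not given in the sources used here. Tallies of unassigned records were left out. Of all records, assigned and unassigned, reads without a gene came to 0.461 to 0.738%, ambiguous reads to 1.87 to 2.75% and multiply aligned reads to 5.89 to 12.2%. *fust-1* C held the highest value of each. Replicates agreed less closely than sampling noise allows in every group (lowest chi-square per degree of freedom 24), so none was merged. Symbols and positions were taken from the Ensembl annotation of WBcel235.

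Counts were tested with the quasi-likelihood test of edgeR 4.0.16 in R 4.3.3, with its filter on low counts and TMM scaling, each of 12 comparisons on its own libraries. Benjamini-Hochberg adjustment covered every gene tested, and a call is an adjusted p under 0.05. Values after ± are SE for fold changes and SD for levels, and intervals are 95%. The tests were run on simulated counts with known changes first. Alternatives were DESeq2 1.42.0, its size factors, no filter, a block for the replicate letter, 1 fit to all 18 libraries, and each library left out; removing each library's lowess trend with exon length (span 0.3), alone or with the block, and leaving out *fust-1* C and *tdp-1; ceh-14* C were added after the data were seen. Same-lettered libraries deviated together: over 17560 genes the correlation of their deviations from the group means was over 0.1 for every letter in 5 of the 7 pairs of genotypes, and not in *fust-1; ceh-14* against *ceh-14* (lowest 0.01) or against wild type (lowest -0.17). The replicate pairing in those 5 comes from the data, since the labels give the letters only.

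The 41 genes and all lists were chosen with earlier results of these data known. The values of each library are given for the 8 SR genes and for the members with the smallest p in each comparison; *prp-17*, *prp-19*, *lsm-4*, *snr-4*, *smg-5*, *smg-6* and *skp-1* were named in addition after their values were seen.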

Additional observations from a re-analysis of the deposited data

How the results depend on the processing

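edgeR called none of the 41 genes in any of the 12 comparisons with DESeq2's size factors, without the filter on low counts, with the replicate block (0 calls in each, lowest adjusted p 0.0893), with all 18 libraries in 1 fit, or with any 1 library left out. The number of genes called overall moved far more: with the replicate block it was 927 in place of 21 in *tdp-1* against wild type, 1860 in place of 54 on loss of *tdp-1* over both backgrounds and 2186 in place of 877 in the contrast of *tdp-1* with *fust-1* loss, and with DESeq2 it was 870, 1222 and 2503. Calls among the 41 appeared in that contrast with DESeq2 (2), with the exon length trend removed (3), with this and the block (9) and without the libraries that stand apart (1), and on loss of *tdp-1* over both backgrounds with the length trend removed and the block (3). The cause was not tested. Leaving out each library moved the median of the 41 genes between -0.26 and -0.11 in *tdp-1* against wild type, -0.04 and 0.12 in *ceh-14* against wild type, -0.17 and 0.12 in the interaction of *fust-1* with *ceh-14*, and 0.22 and 0.44 in that of *tdp-1* with *ceh-14*. *lsm-3* in *fust-1* ran from -0.17 without *fust-1* C to 1.25 without *fust-1* A, and *snr-5* in *ceh-14* from -0.33 without wild type A to 0.01 without wild type C. The call of *sna-2* was lost without the filter (adjusted p = 0.0963). The summed level of the 41 genes in *fust-1; ceh-14* was 5100 CPM with DESeq2's size factors in place of 4950. Of the other alternative values, 689 kept their direction and side of the threshold or moved by less than the replicate spread. With 3 libraries a group, the median half-width of the 95% intervals was 0.21 to 0.55 on the log2 scale.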
